A study of Mus musculus with 3 samples.

Results

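The genes described here are 50 genes of mitosis, which encode the kinetochore, the spindle checkpoint, chromosome condensation and the spindle and cytokinesis proteins that act with them. They were chosen by name for these roles, with earlier results of these data known, so their shares beside all genes are descriptions only. They were matched by Entrez ID to the gene IDs of the deposited tables. All 50 were found among 16621 gene IDs and were listed in each of the 3 libraries. All 50 also had at least 10 estimated counts in at least 1 library, so none was left out by that limit. The members nearest to it were Cenpp, with at most 23 counts, and Ska1, with at most 30 counts. All 50 were among the 12888 genes tested.

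The cells were tail tendon derived stem cells from C57BL/6 mice, 10 weeks old in both genotypes, and their poly(A) RNA was sequenced. These are adherent progenitor cells grown out of tendon, and they were harvested untreated at passage 4 from confluent dishes. Of the 3 libraries, 1 was from wild-type cells (WT) and 2 were from cells carrying CFTRΔF508 (DF508), the deletion of a phenylalanine from the CFTR anion channel that is the most common cystic fibrosis mutation. The comparison is of mutant with wild-type cells. Nothing in the labels says that the DF508 pair stems from separate mice or dishes, so the p-values rest on a spread between a single pair of libraries that may be technical. The lone WT library is taken to vary as that pair does.

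The libraries held 5241826 to 5298326 estimated counts each. Cftr itself had 15 counts in WT and 1 count in each DF508 library, and since ΔF508 is a short in-frame deletion this level does not check the labels. All 12 tendon fibroblast markers were listed in every library, among them Tnmd with 92.7 CPM in WT and 109 and 192 CPM in DF508 replicates 1 and 2, and Scx with 2.1 to 3.02 CPM. Of 9 endothelial markers 4 were listed in at least 1 library, while Pecam1 and Cdh5 were listed in none. The highest, Tek, had 14.5 CPM in WT and 13.2 and 12.4 CPM in DF508. Of 5 lymphoid markers only Cd79a was listed, with 2 counts in WT. DF508 replicate 2 stood apart in its myeloid markers. All 14 myeloid markers, Ptprc, Csf1r and Adgre1 included, were listed in every library, and their summed level was 103 CPM in WT, 160 CPM in DF508 replicate 1 and 739 CPM in DF508 replicate 2. None of the 14 passed the threshold. Of 8 smooth muscle and pericyte markers tested, Acta2, Cnn1 and Lmod1 rose and 5 did not pass. The summed level of the list was 971 CPM in WT and 1685.6 and 1597.0 CPM in DF508. Acta2, whose reads are partly shared with other genes, made up 411 CPM of it in WT and 1071.5 and 1020.5 CPM in DF508.

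As background, the kinetochore is the protein assembly on the centromere that ties a chromosome to spindle microtubules. Its inner layer sits on nucleosomes that contain the histone variant CENP-A, its outer layer binds microtubules, and the spindle checkpoint holds back the anaphase-promoting complex until all chromosomes are attached. Most of the genes are transcribed mainly in G2 and mitosis, so in a mixed culture their transcripts mark dividing cells. In bulk RNA, more dividing cells and more RNA per dividing cell cannot be told apart.

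Of the 50 members, 9 rose in DF508 and none fell (edgeR's quasi-likelihood test, Benjamini-Hochberg adjusted p under 0.05 over all genes tested). That is 18% of the members, and over all 12888 genes 0.489% rose and 0.9% fell. The 9 were Mki67, Top2a, Anln, Cenpf, Tpx2, Prc1, Cenpe, Aurkb and Ncapd2, at 1.57-fold to 2.6-fold. At an unadjusted p under 0.05 there were 34 members higher and none lower, against 5.86% higher and 6.08% lower over all genes. The fitted log2 fold change was positive for all 50, against 50.9% of all genes. Its median was 0.67 (1.59-fold), with an interquartile range of 0.5 to 0.78, beside a median of 0.01 and an interquartile range of -0.17 to 0.2 over all genes tested.

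CPM here is the estimated count scaled to 1e6 counts of the library total, whereas fitted fold changes use TMM-normalized library sizes. The summed level of the 50 members was 1275.9 CPM in WT, 1944.4 CPM in DF508 replicate 1 and 2148.3 CPM in DF508 replicate 2. Without Mki67 and Top2a the sums were 1025.3, 1501.7 and 1638.3 CPM. WT was the lowest of the 3 libraries for 48 of the 50 members, where 43.2% of the 12930 genes with at least 10 counts had both DF508 libraries above WT. The exceptions were Cenpm and Dsn1. Both DF508 libraries stood at least 1.5-fold above WT for 27 members, against 5.64% of all genes, and none stood 1.5-fold below it, against 2.52%. At 2-fold there were 3 (Ska1, Zwilch and Aurkb), against 2.17%.

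**Figure D1:**
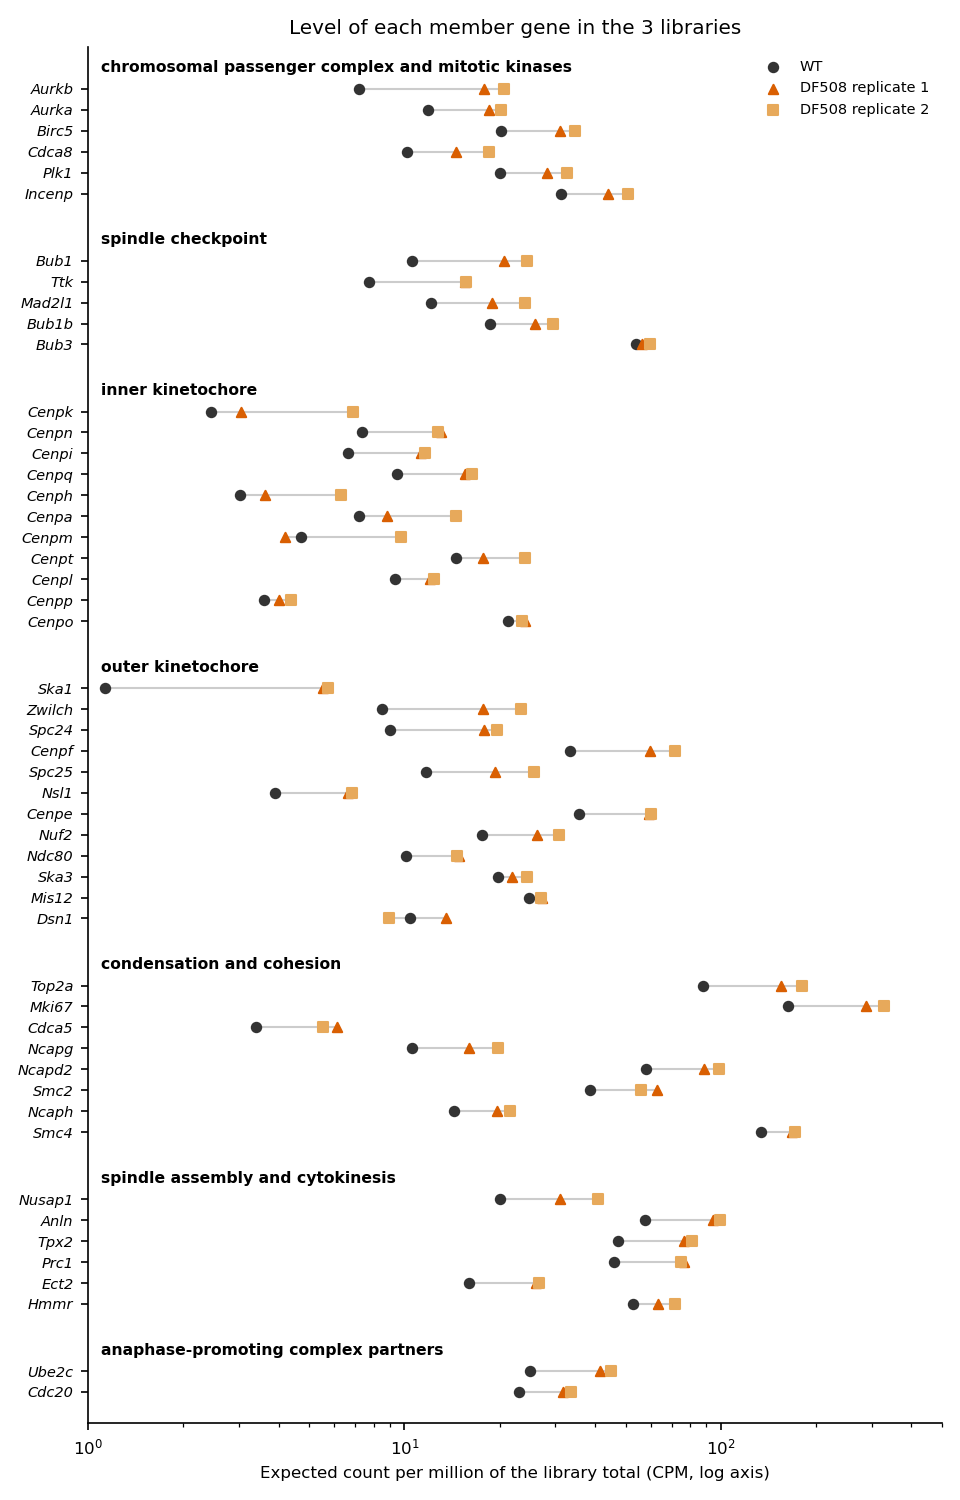
CPM on the library total (log axis) for each of the 50 members in WT (circles), DF508 replicate 1 (triangles) and DF508 replicate 2 (squares), grouped by role. WT is the lowest point in 48 rows; in the rows of Cenpm and Dsn1 it lies between the DF508 libraries.

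The count of members past the threshold depended on the model and on the scaling. The direction did not change in any fit with all 3 libraries. Those fits share the single WT library, the lowest of the 3 for 48 members, so their common direction is no independent check. DESeq2's Wald test called only Mki67 and Top2a among the members, where 0.171% of all 12888 genes rose. It gave no adjusted p for Cdca5, Cenpa, Cenph, Cenpi, Cenpk, Cenpm, Cenpp, Nsl1 and Ska1, so these could not be called. The 0.171% counts genes without an adjusted p as not called. By this test 14 members and 1.51% of all genes were higher at an unadjusted p under 0.05. Limma-voom called 7, all but Cenpe and Aurkb of the 9, where 0.403% of all genes rose. An edgeR fit without genes that share reads called Mki67, Top2a and Anln of the 38 members left, where 0.191% of genes rose. EdgeR on library totals called none (0.0% of all genes), with 33 members and 5.91% of all genes higher at an unadjusted p under 0.05. Without a filter on low counts edgeR called none (0.0%), with 26 members and 3.13% of all genes higher at that unadjusted p. Limma-trend called none (0.0%) on log2(FPKM + 1), nor with a pseudocount of 0.1, and 34 members were higher at that unadjusted p in each, against 5.32% and 5.58% of all genes. The prior degrees of freedom of the edgeR fits were 7.72 in the reported fit, 2.57 on library totals and 1.78 without the filter. Of the 50 members 12 share reads with another gene or copy (24%, against 22.4% of all genes tested) and are uncertain. They are Cenpf, Tpx2 and Prc1 of the 9, and Birc5, Cenpl, Ndc80, Nuf2, Spc24, Nsl1, Ska3, Hmmr and Ube2c.

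The DF508 libraries were compared with WT singly because of the myeloid signal. The median log2 CPM ratio to WT over the members was 0.63 in DF508 replicate 1 and 0.79 in DF508 replicate 2, beside 0.04 and 0.05 over all genes tested. Over the 14 myeloid markers the same medians were 0.83 and 2.87. In each DF508 library 49 members were above WT. Replicate 2 was above replicate 1 for 42 members. The median log2 ratio between them was 0.13 over the members, beside -0.0 over all genes tested. Shares over all genes are not given here for the counts of 49 and 42 members. The part that myeloid or smooth muscle cells had in the member levels was not tested.

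**Figure D2:**
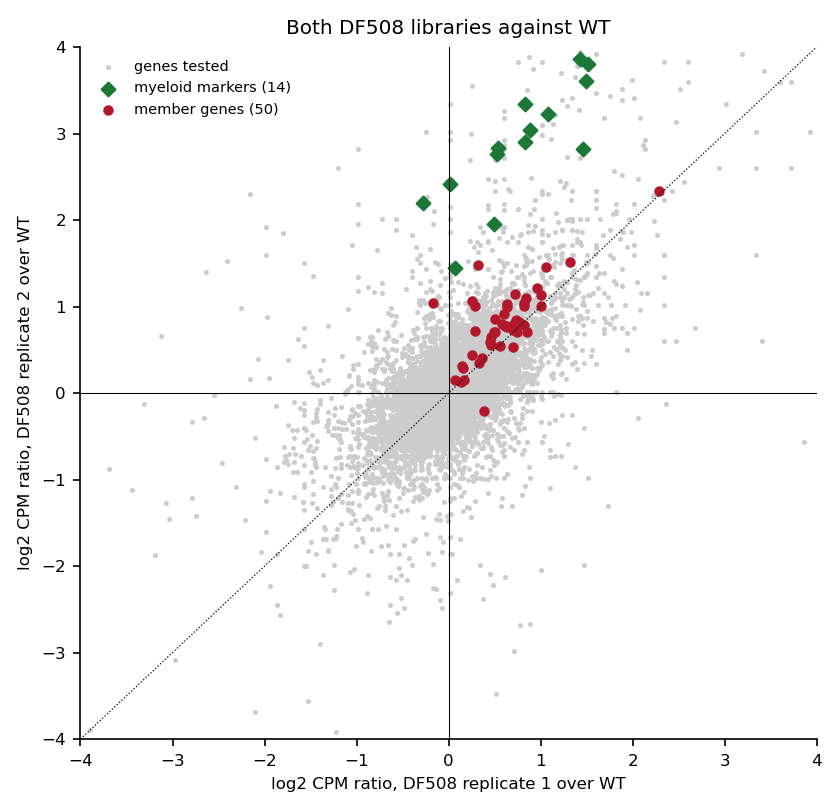
Log2 CPM ratio to WT in DF508 replicate 1 (x axis) and DF508 replicate 2 (y axis) for the genes tested with counts in all 3 libraries (grey, those within 4 units of 0), the 14 myeloid markers (diamonds) and the 50 members (red). Most members lie near the diagonal and above 0 on both axes, with medians of 0.63 and 0.79, while the myeloid markers lie far above it, with medians of 0.83 and 2.87.

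The promoters of these genes are shown because genes expressed in G2 and mitosis are known to share promoter elements. One is the cell cycle genes homology region (CHR), which is bound by the DREAM complex in resting cells and by MuvB complexes with B-MYB and FOXM1 in dividing cells, and another is the CCAAT box, bound by NF-Y. RefSeq promoters of GRCm38.p6, 250 bases before to 50 bases after the start, were in the table for 42 of the 50 members. The 3 members past the threshold with the lowest adjusted p that had an entry are printed 5′ to 3′ in the direction of the gene, with matches to either motif in capitals. They are the minus-strand windows chr7:135716330-135716629 of Mki67, chr11:99024140-99024439 of Top2a and chr9:22389157-22389456 of Anln.
Mki67: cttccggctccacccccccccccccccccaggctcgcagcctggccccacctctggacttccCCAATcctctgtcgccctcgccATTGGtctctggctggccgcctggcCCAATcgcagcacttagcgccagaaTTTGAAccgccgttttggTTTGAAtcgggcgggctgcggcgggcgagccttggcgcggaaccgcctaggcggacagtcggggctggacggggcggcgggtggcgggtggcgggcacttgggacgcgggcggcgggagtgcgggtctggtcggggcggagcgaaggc
Top2a: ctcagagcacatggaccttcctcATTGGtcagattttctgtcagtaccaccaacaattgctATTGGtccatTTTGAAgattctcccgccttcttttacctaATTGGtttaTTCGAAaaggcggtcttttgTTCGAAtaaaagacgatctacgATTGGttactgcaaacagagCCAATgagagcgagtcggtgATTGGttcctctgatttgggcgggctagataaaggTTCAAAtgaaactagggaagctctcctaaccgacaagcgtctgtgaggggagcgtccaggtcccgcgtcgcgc
Anln: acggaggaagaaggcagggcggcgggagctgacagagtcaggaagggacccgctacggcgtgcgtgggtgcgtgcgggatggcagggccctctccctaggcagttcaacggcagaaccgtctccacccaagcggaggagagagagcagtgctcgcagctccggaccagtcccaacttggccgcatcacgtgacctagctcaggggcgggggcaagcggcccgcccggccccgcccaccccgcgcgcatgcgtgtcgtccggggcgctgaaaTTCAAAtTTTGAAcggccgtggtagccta
The Mki67 window holds CHR matches that begin 116 and 98 bases before the start, downstream of 3 CCAAT matches. The Top2a window holds 4 CHR matches and 6 CCAAT matches on either strand. The Anln window holds 2 CHR matches, beginning 21 and 28 bases after the start, and no CCAAT match.

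The motifs were common across the members. CHR was searched as TTTGAA or TTCGAA, the CCAAT box as CCAAT, and E2F sites as TTTCGCGC, TTTGGCGC or TTCCCGC, each on both strands, and no letters of one motif were excluded where they overlapped another. A CHR match stood in 30 of 47 member promoters (63.8%), against 14.1% of 13046 promoters of tested genes and 19.2% of all 32851 promoters. A CCAAT match stood in 72.3% of member promoters, against 37.5% of those of tested genes and 37.4% of all. Both stood together in 55.3%, against 5.72% and 7.52%. E2F matches were in 19.1%, against 9.33% and 5.33%. Where a promoter had a CHR match, the match nearest to the start lay within 50 bases of it in 83.3% of member promoters and in 25.6% of promoters of tested genes.

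The fold changes of members with and without a match were set side by side. Members with a CHR match had a median fitted log2 fold change of 0.66 (27 genes) and those without one 0.65 (15 genes). For CCAAT the medians were 0.67 (29 genes) and 0.49 (13 genes). Bub3, with both motifs, had a fitted log2 fold change of 0.07, and Cenpe, which rose, had a CCAAT match but no CHR match in its window. A match is a description of letters in the window and shows no binding.

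**Figure D3:**
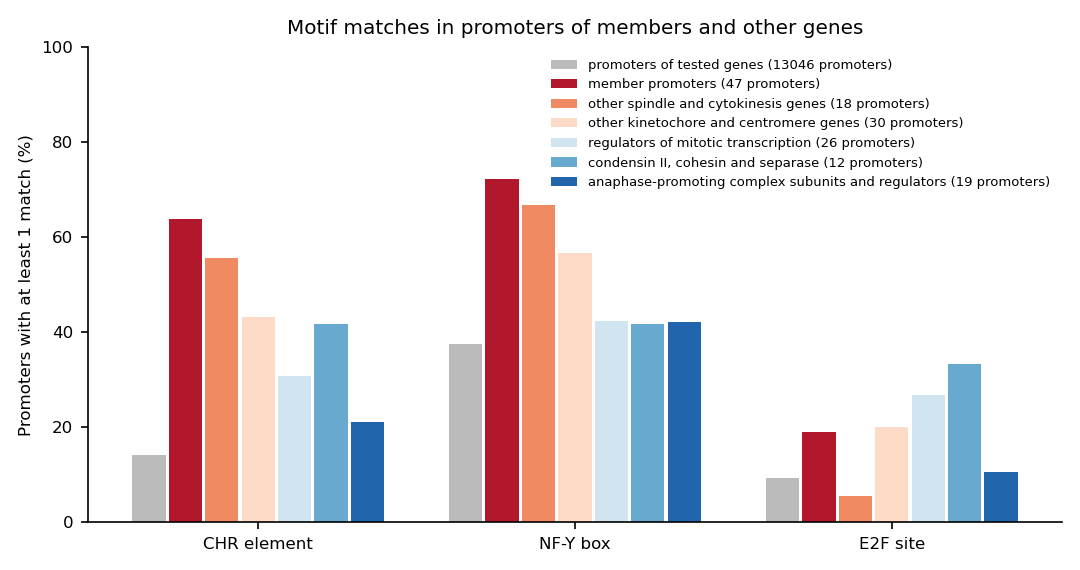
Share of RefSeq promoters (300 bases each, y axis from 0 to 100%) with at least 1 match to the CHR element, the NF-Y box or an E2F site, for tested genes, the members and 5 lists of related genes. The bar of the members reaches 63.8% for CHR and 72.3% for the NF-Y box, against 14.1% and 37.5% of the promoters of tested genes.

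Among the mitotic kinases and the chromosomal passenger complex, 1 of 6 members rose and 5 did not pass, with fitted log2 fold changes of 0.55 to 1.38. Aurkb (gene ID 20877), the kinase of the complex, which corrects faulty attachments and acts in cytokinesis, had 7.17 CPM in WT and 17.9 and 20.6 CPM in DF508. The DF508 values lay 2.5-fold and 2.87-fold above WT. The fitted log2 fold change was 1.38 ± 0.26 (SE; adjusted p = 0.044). It rests on 38 counts in WT and 94 and 108 in DF508, and neither DESeq2's Wald test (adjusted p = 0.643) nor limma-voom (adjusted p = 0.0784) called it.

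Its partners did not pass. Incenp, the scaffold of the complex, had 31.3 CPM in WT and 44.1 and 50.9 CPM in DF508 (log2 fold change 0.55 ± 0.16 SE, adjusted p = 0.176). Cdca8 (borealin) had 10.2, 14.5 and 18.5 CPM (0.65 ± 0.27, adjusted p = 0.374). Birc5 (survivin), which carries the complex to the centromere, had 20.2, 31.1 and 34.6 CPM (0.65 ± 0.19, adjusted p = 0.183). In each of them WT was the lowest library, and Aurkb had the largest ratio of the 4.

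Birc5 was the member whose level per length differed most from its count. Its FPKM was 10.72 in WT and 23.18 and 27.02 in DF508, 2.16-fold and 2.52-fold higher, while its CPM was 1.54-fold and 1.71-fold higher. The gene length that RSEM estimated, a mean over its transcripts weighted by their share, was 1897 bases in WT and 1359 and 1298 bases in DF508. The reads of Birc5 were thus assigned to a shorter mix of transcripts in both DF508 libraries; it also shares reads with another gene or copy, so this is uncertain. Cenpl had a similar gap in DF508 replicate 2, with 4342, 4157 and 3230 bases.

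The other kinases were Aurka, which builds the spindle poles, and Plk1, which acts at many steps of mitosis. Aurka had 11.9 CPM in WT and 18.5 and 20.2 CPM in DF508 (0.66 ± 0.23, adjusted p = 0.277). Plk1 had 20, 28.2 and 32.6 CPM (0.56 ± 0.2, adjusted p = 0.282). In both genes the DF508 libraries lay above WT, and neither passed. Aurkb was below Aurka per length in WT (3.68 against 6.27 FPKM) and close to it in DF508 (9.2 against 9.76 FPKM in replicate 1 and 10.56 against 10.66 FPKM in replicate 2).

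None of the 5 spindle checkpoint genes passed, and 4 of them had fitted log2 fold changes of 0.52 to 1.04. Bub1, the kinase that recruits other checkpoint proteins to the kinetochore, had 10.6 CPM in WT and 20.6 and 24.4 CPM in DF508 (1.04 ± 0.24, adjusted p = 0.0925). Ttk (MPS1), the kinase that starts checkpoint signalling, had 7.74, 15.5 and 15.6 CPM (0.96 ± 0.26, adjusted p = 0.16). Mad2l1 (MAD2) and Bub1b (BUBR1), which form the inhibitor of the anaphase-promoting complex, had log2 fold changes of 0.78 and 0.52. For all 4 the DF508 libraries lay above WT.

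Bub3, which brings BUB1 and BUBR1 to the kinetochore, stood apart from its partners. It had 53.8 CPM in WT and 56.5 and 59.8 CPM in DF508, 1.05-fold and 1.11-fold higher (0.07 ± 0.12, adjusted p = 0.892). It had the highest FPKM of the group, with 26.26 in WT and 27.58 and 29.22 in DF508. The ratio of the summed DF508 counts to WT was 1.08, with an exact 95% interval of 0.938 to 1.25 for counting error alone.

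Of the 11 inner kinetochore members none passed, at fitted log2 fold changes of 0.12 to 0.96. These were mostly low in counts, with 13 (Cenpk) to 113 (Cenpo) counts in WT. Cenpa, the centromeric histone, had 7.17 CPM in WT and 8.78 and 14.5 CPM in DF508 (0.65 ± 0.37, adjusted p = 0.545). Cenpt, which links centromeric DNA to the outer kinetochore, had 14.5, 17.7 and 24 CPM (0.48 ± 0.25, adjusted p = 0.516) and the highest mean FPKM of the group, 10.7. Cenpk had the highest fitted fold change, with 2.45, 3.05 and 6.86 CPM (0.96 ± 0.64, adjusted p = 0.63), and Cenpo the lowest, with 21.3, 24 and 23.6 CPM (0.12 ± 0.19, adjusted p = 0.881).

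The DF508 libraries differed most in this group. The group's median log2 CPM ratio to WT was 0.29 in DF508 replicate 1 and 0.8 in DF508 replicate 2. Of the 50 members 5 differed by at least 1.5-fold between the DF508 libraries, and the share over all genes is not given here. Of these, 4 were inner kinetochore genes, namely Cenpa, Cenph, Cenpk and Cenpm, all higher in replicate 2. The other, Dsn1, was lower in replicate 2. Counts of the 4 were low in DF508, from 16 (Cenpk, replicate 1) to 76 (Cenpa, replicate 2). Cenpm was below WT in replicate 1, with 4.2 CPM against 4.72 CPM in WT and 9.72 CPM in replicate 2. Cenpn, Cenpi and Cenpq, at log2 fold changes of 0.76, 0.75 and 0.71, had like values in both DF508 libraries (13 and 12.8, 11.3 and 11.6, and 15.5 and 16.4 CPM, against 7.36, 6.61 and 9.44 CPM in WT). Cenph, Cenpl and Cenpp, of the same inner layer, had log2 fold changes of 0.67, 0.35 and 0.18.

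Of the 12 outer kinetochore members 2 rose, none fell and 10 did not pass. Cenpf (gene ID 108000), a large microtubule-binding protein of the outer kinetochore, had 33.4 CPM in WT and 59.9 and 71.8 CPM in DF508. The mean in DF508 was 65.9 ± 8.4 CPM (SD, n = 2), 1.91-fold higher in the fit (log2 fold change 0.93 ± 0.15 SE, adjusted p = 0.0292). Cenpe (gene ID 229841), the kinesin motor that carries chromosomes to the spindle equator, had 35.7 CPM in WT and 59.3 and 60.2 CPM in DF508 (0.7 ± 0.13, adjusted p = 0.0429). The DF508 values of Cenpe lay close together and well above WT. Cenpe missed the threshold with limma-voom (adjusted p = 0.0556), and neither gene passed with DESeq2's Wald test.

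The rest of the layer ranged from the widest to the smallest differences among the members. Ska1, a subunit of the SKA complex that keeps kinetochores on shrinking microtubules, had 1.13 CPM in WT and 5.53 and 5.72 CPM in DF508, the largest fitted difference of all members (2.24 ± 0.6, adjusted p = 0.155). It rests on 6 counts in WT and 29 and 30 in DF508, and the ratio of the summed DF508 counts to WT was 4.97, with an exact 95% interval of 2.15 to 14.1 for counting error only. Its partner Ska3 had 19.8, 21.9 and 24.4 CPM (0.18 ± 0.2, adjusted p = 0.805). Zwilch, a subunit of the complex that recruits dynein and the checkpoint proteins MAD1 and MAD2, had 8.49, 17.7 and 23.4 CPM (1.23 ± 0.27, adjusted p = 0.0824).

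The NDC80 complex is the main microtubule binder of the outer kinetochore, and its 4 subunits had fitted log2 fold changes of 0.49 (Ndc80), 0.65 (Nuf2), 0.9 (Spc25) and 1.01 (Spc24). Spc24 had 8.97 CPM in WT and 17.9 and 19.6 CPM in DF508 (adjusted p = 0.111), and Spc25 had 11.7, 19.3 and 25.7 CPM and the highest mean FPKM of the layer, 14.4. Per length the highest subunit was 1.92-fold above the lowest in WT and 2.17-fold and 2.93-fold in DF508. The MIS12 complex joins NDC80 to the inner layer, and its 3 subunits among the members ranged from 0.07 to 0.72. Mis12 had 24.7, 27.3 and 27.1 CPM (0.09 ± 0.18, adjusted p = 0.9) and Dsn1 10.4, 13.5 and 8.96 CPM (0.07 ± 0.32, adjusted p = 0.962), with WT between the DF508 libraries in Dsn1. Nsl1 had 3.91, 6.63 and 6.84 CPM (0.72 ± 0.41, adjusted p = 0.549).

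**Figure D4:**
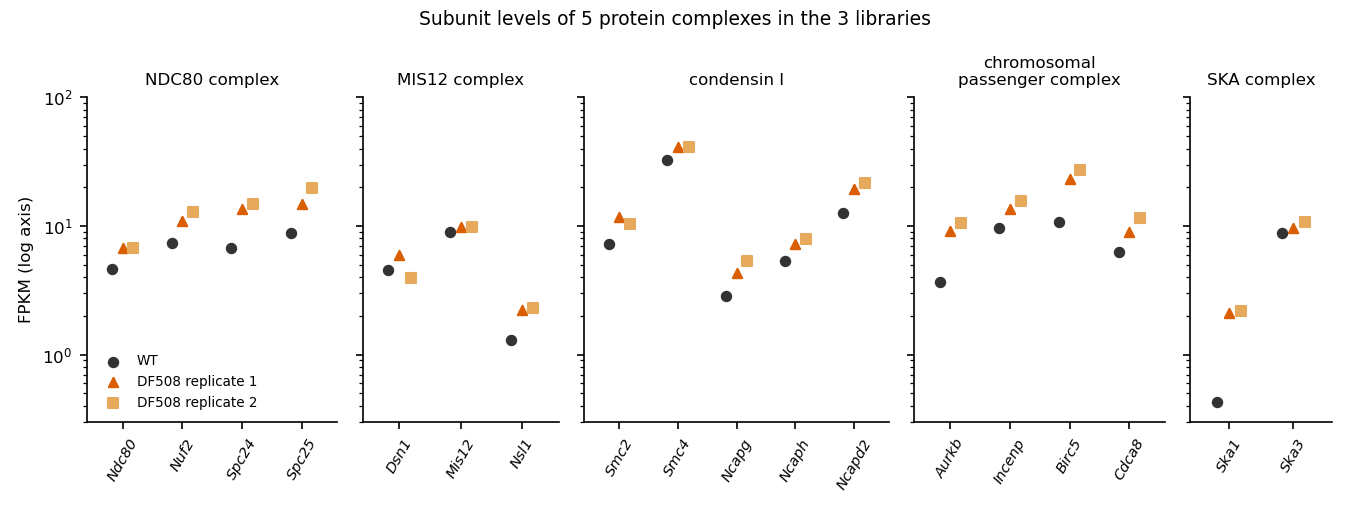
FPKM (log axis) of the subunits among the members of 5 complexes in WT (circles), DF508 replicate 1 (triangles) and DF508 replicate 2 (squares). All subunits of the NDC80, condensin I and chromosomal passenger complexes lie higher in both DF508 libraries than in WT, while Mis12 and Ska3 differ little and Dsn1 has WT between the DF508 libraries.

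Of the 8 condensation and cohesion members 3 rose and none fell. Mki67 (gene ID 17345), the Ki-67 protein that coats mitotic chromosomes and keeps them apart, had 163 CPM in WT and 288 and 329 CPM in DF508, and the lowest adjusted p of all members (0.88 ± 0.12, adjusted p = 0.0139). Top2a (gene ID 21973), the topoisomerase that untangles sister DNA, had 87.8 CPM in WT and 155 and 181 CPM in DF508 (0.89 ± 0.13, adjusted p = 0.0198). Both passed with DESeq2's Wald test too (adjusted p = 0.000638 and 0.0101). In both genes the DF508 libraries lay near each other, 1.76-fold to 2.06-fold above WT.

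Condensin I compacts mitotic chromosomes, and its 5 subunits had fitted log2 fold changes of 0.3 to 0.72. Ncapd2 (gene ID 68298) rose, with 57.9 CPM in WT and 88.7 and 98.9 CPM in DF508 (0.65 ± 0.12, adjusted p = 0.045). Smc4, an ATPase of the complex, had the highest FPKM (32.45 in WT, 40.86 and 41.41 in DF508) and the smallest difference (0.3 ± 0.11, adjusted p = 0.282). Its ATPase partner Smc2 had 38.7, 62.8 and 55.8 CPM (0.57 ± 0.14, adjusted p = 0.111), and Ncapg and Ncaph had log2 fold changes of 0.72 and 0.48. Cdca5 (sororin), which protects cohesion between sister chromatids, had 3.4, 6.1 and 5.53 CPM (0.73 ± 0.46, adjusted p = 0.601).

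Of the 6 spindle assembly and cytokinesis members 3 rose and none fell. Anln (gene ID 68743), the anillin scaffold of the cleavage furrow, had 57.4 CPM in WT and 94.2 and 99.3 CPM in DF508 (0.71 ± 0.12, adjusted p = 0.0289). Tpx2 (gene ID 72119), which activates Aurora A on the spindle, had 47.2, 76.5 and 81.3 CPM (0.7 ± 0.12, adjusted p = 0.0345). Prc1 (gene ID 233406), which bundles the microtubules of the central spindle, had 45.9, 76.7 and 74.8 CPM (0.68 ± 0.12, adjusted p = 0.0377). All 3 had close DF508 values that lay 1.62-fold to 1.73-fold above WT, and none passed with DESeq2's Wald test.

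The other members of that group did not pass. Nusap1, a microtubule-bundling protein, had the highest fitted fold change of the group, with 20, 31.1 and 41 CPM (0.8 ± 0.22, adjusted p = 0.157), and Hmmr, a spindle protein and hyaluronan receptor, the lowest, with 52.9, 63.3 and 71.7 CPM (0.31 ± 0.13, adjusted p = 0.389). Ect2, the exchange factor that activates RhoA at the furrow, had 16, 26.1 and 26.7 CPM (0.67 ± 0.2, adjusted p = 0.202). Both partners of the anaphase-promoting complex had the same direction and did not pass. Ube2c, its ubiquitin-conjugating enzyme and the member with the highest mean FPKM (40.9), had 25, 41.4 and 45 CPM (0.75 ± 0.16, adjusted p = 0.0709), and Cdc20, its activator and the target of the checkpoint, had 23, 31.7 and 33.7 CPM (0.46 ± 0.18, adjusted p = 0.342).

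**Figure D5:**
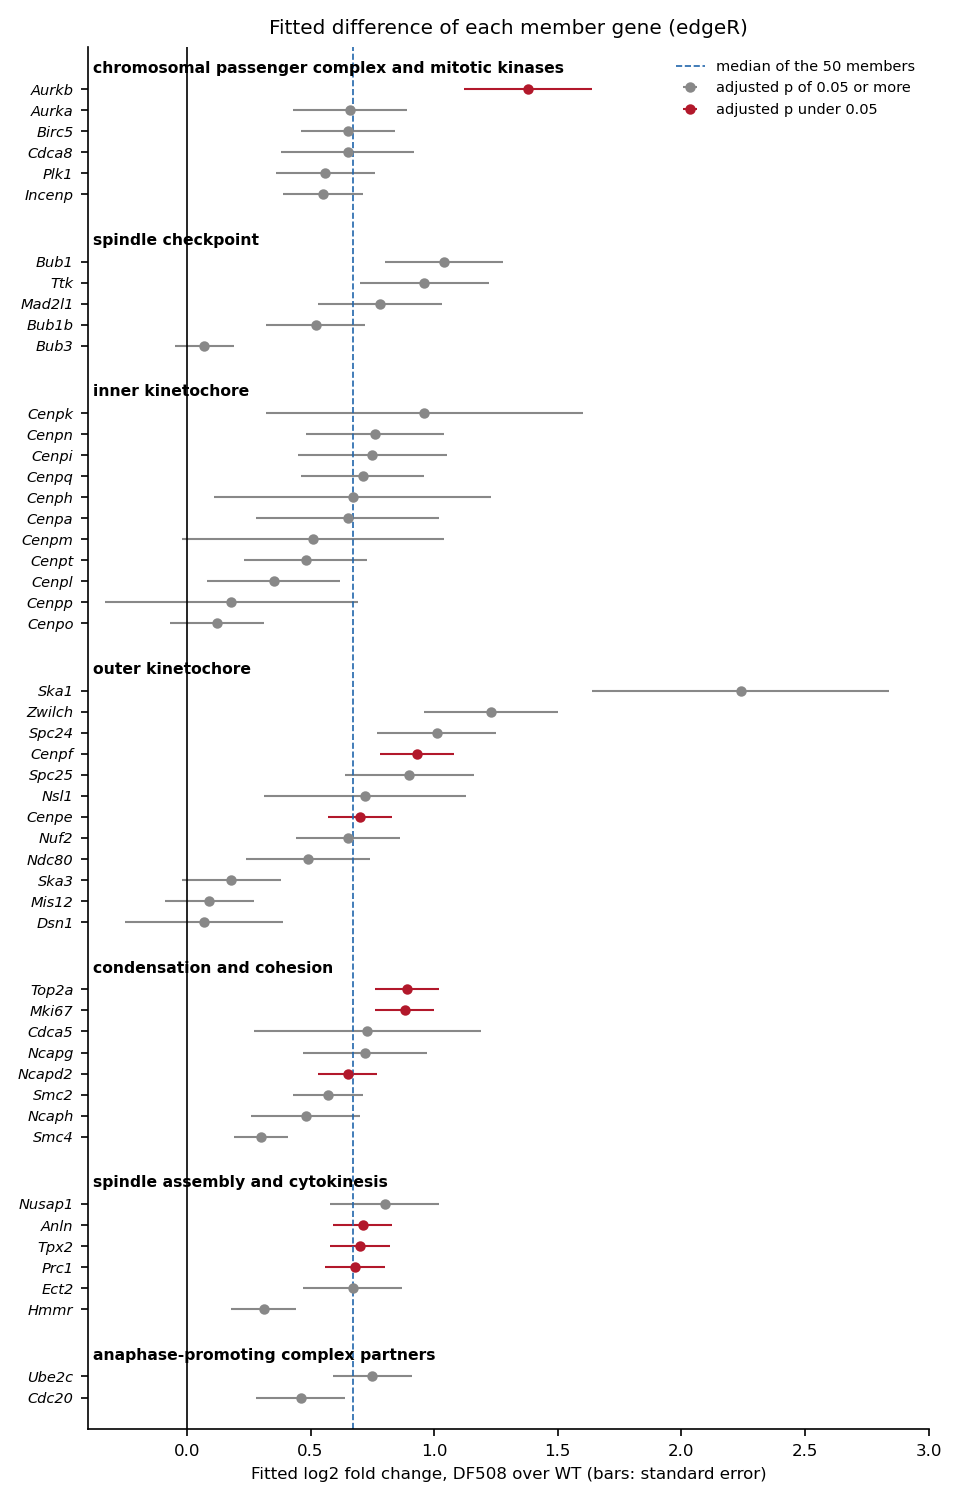
Fitted log2 fold change of DF508 over WT for each member with its standard error, grouped by role; red points passed the threshold and the dashed line marks the median of 0.67. All 50 points lie above 0, from 0.07 (Bub3 and Dsn1) to 2.24 (Ska1).

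Genes of the same processes outside the 50 were read from 5 lists. Of 103 such genes, all tested, 3 rose, none fell and 82 had a positive fitted log2 fold change, with a median of 0.25. Over all genes tested 0.489% rose, 0.9% fell and 50.9% had a positive value, with a median of 0.01. The 3 were spindle and cytokinesis genes. Ckap2 (gene ID 80986), a microtubule stabiliser, had 27.7 CPM in WT and 60.5 and 59.3 CPM in DF508 (1.06 ± 0.14, adjusted p = 0.0112). Its relative Ckap2l had 23.2, 44.1 and 45.4 CPM (0.9 ± 0.16, adjusted p = 0.0348), and Racgap1, the partner of ECT2 at the central spindle, 38.1, 69.4 and 65.8 CPM (0.78 ± 0.13, adjusted p = 0.0289). Racgap1 shares reads with another gene or copy. All 21 genes of that list had positive values, with a median of 0.67.

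The other lists had smaller medians and no call in either direction. In each, the 2 genes named are those with the highest mean FPKM. Over 27 other kinetochore and centromere genes the median was 0.29 (range -0.31 to 1.64), with Cenpb at 0.15 and Cenpx at 0.04. Over 16 genes of condensin II, cohesin and separase it was 0.23 (range -0.4 to 0.69), with the cohesin subunits Rad21 at 0.21 and Smc1a at 0.06. Over 17 anaphase-promoting complex subunits and regulators the median was 0.01 (range -0.43 to 0.67), with Anapc5 at 0.04 and Anapc13 at 0.01. In that list 9 were positive, near the share of 50.9% over all genes. Over 22 regulators of mitotic transcription the median was 0.12 (range -0.51 to 1.35), with Tfdp1 at 0.09 and E2f4 at -0.02. Differences between lists were not tested. CHR matches stood in 55.6% of promoters in the list of other spindle genes and in 43.3% in that of other kinetochore genes. The share was 41.7% for condensin II, cohesin and separase, 30.8% for the regulators and 21.1% for the anaphase-promoting complex list. Among promoters of tested genes it was 14.1%. A relation of these shares to the fold changes was not tested.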

How the data were processed

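The 3 poly(A) RNA libraries (1 WT and 2 DF508) were each deposited as a gene table. Reads had been aligned with Bowtie and quantified by RSEM on mm9, per the submitters' processing notes. Versions, annotation and any use of strand were not given in the sources used here; without strand, a gene and its antisense or overlapping neighbour cannot be separated. Each table holds the expected count as deposited by the authors (not normalized), the FPKM as deposited by the authors and the gene length RSEM used; a gene not listed was set to 0.

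Expected counts were rounded to whole numbers. Of 16621 gene IDs 99.7% matched a RefSeq table of GRCm38.p6, used for names and promoters. A gene whose estimate was not whole within 0.005 in any library shares reads and is called uncertain. Genotype was tested with edgeR 4.0.16 (R 4.3.3) by the quasi-likelihood test after TMM and filterByExpr, with 1 residual degree of freedom; adjusted p-values are Benjamini-Hochberg over 12888 genes, and a standard error is the log2 fold change over the square root of F. Beside DESeq2 1.42.0 and limma 3.58.1, alternatives were other scalings, no filter, FPKM with pseudocounts of 1 and 0.1, no genes that share reads, and each DF508 library left out. The edgeR test was run on 3 sets of simulated counts with known changes in genes of at least 5 CPM. It recovered 31% of 2-fold and 58.7% of 4-fold changes, so a gene that did not pass may still differ. Intervals are exact (Clopper-Pearson, 95%), and cover counting error only.

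The members and lists were chosen with earlier results of these data known. Members past the threshold, and in each role group the highest by FPKM and the highest and lowest by fold change, have full values; outside the members up to 4 genes a list past the threshold, or 2 by FPKM, are named. The direction of the promoters was checked against GENCODE transcripts of the gene. The first 20 bases after the RefSeq start were found in one for 38 of 47 member promoters and the last 20 bases for 44, and no 20 bases of the opposite strand were found for any. For Mki67 and Anln the first 20 bases were not found and the last 20 were: there the GENCODE transcript starts 18 bases after the RefSeq start, from which positions are counted.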

Additional observations from a re-analysis of the deposited data

How the results depend on the processing

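The fitted log2 fold change stayed positive for all 50 members under the alternatives with a test, with a median of 0.61 to 0.72. It was also positive for the 38 left in the fit without genes that share reads. These fits reuse the same WT library, so the shared direction is no independent check. With 1 DF508 library left out, which allows no test, the median was 0.57 to 0.72 and 1 member was negative each time (Cenpm without replicate 2 and Dsn1 without replicate 1). No paired analysis was possible because WT has 1 library. Of the 9 members that rose, edgeR called none on library totals or without a filter, limma-trend none on log2(FPKM + 1) or log2(FPKM + 0.1) (34 higher at an unadjusted p under 0.05 in each), DESeq2's Wald test 2, and a fit without genes that share reads 3, of 38 members left. Of the 103 related genes outside the members, 3 rose; library totals, no filter, DESeq2's Wald test and both FPKM fits (102 genes) called 0, and the fit without genes that share reads (90 genes) 1. At an unadjusted p under 0.05 those 5 fits had 35, 24, 7, 25 and 26 of these genes higher, against 5.91%, 3.13%, 1.51%, 5.32% and 5.58% of all genes. At 2-fold in both DF508 libraries 3 members stood above WT, in place of 27 at 1.5-fold. With TMM-normalized library sizes 24 stood 1.5-fold above WT in both. With 1 DF508 library alone 28 to 38 did at 1.5-fold, and the share over all genes is not given here. The cause of these changes was not tested. With library totals the median over all genes was 0.05 (log2), beside 0.006. Scanning only the last 200 bases of the promoters left the CHR share at 59.6%. With 1 WT library and 15 members under 50 counts in it, no member under 1.57-fold passed.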

Other observations

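Of the 22 regulators of mitotic transcription none passed, 15 had a positive and 7 a negative fitted log2 fold change, from -0.51 to 1.35. Over all genes tested 0.489% rose, 0.9% fell and 50.9% had a positive value. The genes below were named after their values were seen, to show both ends. E2f7, a repressor of the E2F family, had 4.91 CPM in WT and 12.2 and 13.7 CPM in DF508 (log2 fold change 1.35 ± 0.31 SE, edgeR adjusted p = 0.0925). Mybl2 (B-MYB) had 4.72, 8.39 and 11.2 CPM (1.01 ± 0.37, adjusted p = 0.308). Foxm1, a factor that acts on CHR promoters with MuvB, had 29.4, 42.2 and 56 CPM (0.69 ± 0.19, adjusted p = 0.17). E2f1, an activator of the E2F family, had 41.6 CPM in WT and 35.7 and 38 CPM in DF508 (-0.22, adjusted p = 0.63), and Lin52, a subunit of MuvB, 13.6, 9.54 and 10.1 CPM (-0.51, adjusted p = 0.487). The list thus held differences in both directions.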
